A study of Mus musculus with 6 samples.

Results

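Chemokines and their receptors were measured by whole-transcriptome RNA-seq in 6 libraries of cultured mouse cancer-associated fibroblasts, connective tissue cells taken from tumours. Genes were taken by symbol: every gene named Ccl, Cxcl, Ccr or Cxcr with a number, and Cx3cl1, Cx3cr1, Xcl1 and the atypical receptors Ackr1 to Ackr4. This gave 60 genes of the 48368 in the tables, 39 ligands and 21 receptors. The cells came from mammary tumours of MMTV-PyMT mice, in which the MMTV promoter drives a polyomavirus oncogene in the mammary epithelium, and all 6 libraries share that transgene. Per the labels, 3 libraries were heterozygous (HET, Hic-5+/-) and 3 were knockout (KO, Hic-5-/-) for Hic-5, which Tgfb1i1 encodes and which serves as a scaffold at focal adhesions through LIM domains. The controls thus carry 1 targeted allele, and no wild-type library is among the 6. The cultures had no further treatment in the labels, and animal ages are not known here.

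Chemokines are small secreted proteins that guide migrating cells along gradients. They are sorted by the spacing of their first cysteines into CC, CXC, CX3C and XC ligands, and they act on G protein-coupled receptors found mostly on leukocytes. Atypical receptors bind chemokines without G protein signalling and remove them. Tumour fibroblasts are known as sources of CXCL12, the ligand of CXCR4, and of CCL2, which draws monocytes.

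The promoters of 5 members are shown. The 2 libraries with the most Cxcl12 had the least of its scavenger receptor Ackr3. Cxcl1, Cxcl2 and Cxcl3 are neighbours on chromosome 5 that differed in level. Sequences are from RefSeq (GRCm38.p6), from 250 bases before to 50 bases after the gene's start. Capitals mark a match, on either strand, to any of 6 motifs searched: the NF-kB consensus, AP-1 (TGANTCA), C/EBP (TTGCNNAA), the ISRE core (GAAANNGAAA), the TATA box (TATAAA) and the hypoxia element core (ACGTG).
Cxcl12, chr6:117168285-117168584, + strand: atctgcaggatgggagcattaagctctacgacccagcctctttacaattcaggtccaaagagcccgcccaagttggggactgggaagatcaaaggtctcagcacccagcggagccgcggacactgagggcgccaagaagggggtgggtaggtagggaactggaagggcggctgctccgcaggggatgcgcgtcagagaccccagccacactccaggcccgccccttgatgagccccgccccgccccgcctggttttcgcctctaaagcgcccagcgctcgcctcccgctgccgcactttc
Ackr3, chr1:90203730-90204029, + strand: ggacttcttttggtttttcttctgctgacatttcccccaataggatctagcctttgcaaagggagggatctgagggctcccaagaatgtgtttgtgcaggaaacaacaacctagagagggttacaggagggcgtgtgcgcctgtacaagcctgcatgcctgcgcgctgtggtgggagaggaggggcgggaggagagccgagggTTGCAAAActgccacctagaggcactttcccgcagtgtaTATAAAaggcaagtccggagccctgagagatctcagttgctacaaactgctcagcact
Cxcl1, chr5:90890995-90891294, + strand: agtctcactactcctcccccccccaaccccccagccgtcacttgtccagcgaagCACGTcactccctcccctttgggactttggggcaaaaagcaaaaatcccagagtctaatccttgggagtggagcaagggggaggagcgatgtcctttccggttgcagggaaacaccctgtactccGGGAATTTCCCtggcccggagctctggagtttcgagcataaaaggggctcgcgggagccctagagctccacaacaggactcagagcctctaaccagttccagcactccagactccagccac
Cxcl2, chr5:90903649-90903948, + strand: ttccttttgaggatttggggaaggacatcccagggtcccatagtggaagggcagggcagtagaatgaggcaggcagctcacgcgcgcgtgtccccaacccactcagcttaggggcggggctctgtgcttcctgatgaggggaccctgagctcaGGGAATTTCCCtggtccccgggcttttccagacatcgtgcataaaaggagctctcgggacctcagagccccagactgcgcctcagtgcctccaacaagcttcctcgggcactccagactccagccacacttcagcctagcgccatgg
Cxcl3, chr5:90785851-90786150, + strand: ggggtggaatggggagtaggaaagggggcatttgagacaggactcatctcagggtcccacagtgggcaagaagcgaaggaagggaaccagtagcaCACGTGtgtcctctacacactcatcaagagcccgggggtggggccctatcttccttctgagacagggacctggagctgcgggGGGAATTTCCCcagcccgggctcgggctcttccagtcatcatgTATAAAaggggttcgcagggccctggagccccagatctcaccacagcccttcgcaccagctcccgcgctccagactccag
The window of Cxcl12 held no match to any of the 6 motifs. That of Ackr3 held a C/EBP match starting 47 bases, and a TATA box match starting 8 bases, before the start. Cxcl1, Cxcl2 and Cxcl3 held the same run GGGAATTTCCC, which matches the NF-kB consensus on both strands in overlap. It began 71, 97 and 73 bases before the start. Cxcl3 also held a TATA box match starting 30 bases before the start, and Cxcl1 and Cxcl3 each held the hypoxia element core, in Cxcl3 on both strands in overlap. Promoters of 44 members were at hand, in 51 windows, so that genes such as Ccl27a and Ccl27b counted more than once. Those of Ccl2, Ccl7 and Ccl5 were not at hand. The NF-kB consensus was in 12 of these 51 windows (23.5%) and in 8.5% of 32851 mouse promoters. AP-1 was in 17.6% against 7.8%, C/EBP in 13.7% against 10.8%, the ISRE core in 5.9% against 3.4%, the TATA box in 25.5% against 13.6% and the hypoxia element core in 11.8% against 19.6%. A match describes these letters only.

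Each library held between 24954273 and 42470598 estimated counts, so that 3 counts corresponded to 0.0706 to 0.1202 CPM (counts scaled to a common library size, by totals for this floor and with TMM factors elsewhere). Such floors cover counting error only. Tgfb1i1, the targeted gene, did not separate the labels: levels were 223, 348 and 125 CPM for HET (replicates 1, 2 and 3, an order kept throughout) against 90.4, 0.2325 and 156 CPM for KO. The library labelled KO replicate 3 lay within the range of HET. KO replicate 1 lay below it but still held 90.4 CPM, against 125 CPM in the lowest HET library. Only KO replicate 2 was close to 0, so directions below compare labels, not verified genotypes. KO replicate 2 stood apart in several fibroblast genes, with Col1a1, a chain of type I collagen, at 2.56 CPM against 274 to 4948 CPM elsewhere. Its fibroblast markers summed to 7880 CPM, of which Fn1 and Vim, genes of many cell types, made up 4176 and 2870 CPM. Without these 2 genes the sum was 834.3 CPM, against 5273 and 2287 CPM in the other KO libraries and 6512 to 15330 CPM in HET. Dcn and Thy1, matrix and surface markers of fibroblasts, stood at 0.775 and 0.982 CPM in it. Not all fibroblast markers were that low there. Pdgfra stood at 124.1 CPM, against 143.5 CPM in KO replicate 3 and 183.6 CPM in HET replicate 1. Pdgfrb stood at 137.8 CPM, against 183.6 CPM in KO replicate 1, and Col3a1 at 21.83 CPM, against 9.441 CPM in KO replicate 1. Its epithelial markers summed to 89.7 CPM against 1.30 to 11.2 CPM elsewhere. Leukocyte and macrophage markers summed to 1725 CPM for HET replicate 2, to 1220 CPM for KO replicate 3, and to 21.9 to 59.8 CPM in the other 4. Without Lyz2, the most abundant of them, the sums were 469 and 183 CPM against 17.5 to 43.1 CPM. Markers of lymphocytes summed to at most 0.284 CPM and of neutrophils and mast cells to at most 1.55 CPM. Endothelial markers summed to 4.26 to 16.7 CPM, the highest in KO replicate 1, where Kdr stood at 12.8 CPM, while Pecam1 reached at most 0.853 CPM. The series' design text calls the replicates technical, whereas their titles carry different numbers, so p-values measure the spread between these libraries only.

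Of the 60 chemokine genes, 9 had no count in any library, among them Ccl19, Ccl22, Ccr6, Ccr8 and Xcl1. Another 6 never exceeded 2 counts, and 45 reached 3 counts in at least 1 library. At that mark, 17, 24 and 22 ligands were detected in the HET libraries and 15, 23 and 22 in those labelled KO. Receptors numbered 7, 12 and 11 in HET and 8 in each KO library. After the filter on low counts, 24 genes were tested, 18 ligands and 6 receptors, and these are not all members. The others included Ccl20, at most 0.768 CPM in HET replicate 2, Ccl27b, at most 0.392 CPM in HET replicate 3, and Ccl12, Ccl3 and Ccl4, which reached 2.67, 2.33 and 2.28 CPM in HET replicate 2.

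No chemokine gene passed edgeR's quasi-likelihood test between KO and HET (Benjamini-Hochberg adjusted over all 17584 genes tested, smallest adjusted p = 0.579), where the share called over all genes was 0%. DESeq2 called no member either, where it called 1.2% of all genes. Of the 24 members tested in edgeR it gave an adjusted p to 20, and none to Ackr3, Ccl6, Cx3cl1 and Cxcr4. At an unadjusted p under 0.05 there were 2 of 24, against 8.59% of all genes tested: Ccl5 higher in KO (4.3% of all genes) and Ackr4 lower (4.29%). These were also the only 2 tested members whose labels did not overlap, against 15.5% of all genes (8.1% with KO higher and 7.42% with KO lower). In direction, 17 of the 24 were lower and 7 higher in KO, with a median log2 fold change of -1.18, while the median over all tested genes was 0.01 and 49.1% were lower. The median depended on which libraries were included. Without HET replicate 2 it was 0.090, and without both HET replicate 2 and KO replicate 3 it was -1.24. The counts at an unadjusted p under 0.05 in edgeR also moved, for members and for all genes, of which 1511 had one in the reported fit. Without HET replicate 2 no member and 648 genes in all had one. No member had one without KO replicate 1 (1704 genes in all) or without KO replicate 2 (917 genes in all). Without KO replicate 3, 10 members and 2281 genes in all had one, and the members' median was -2.16.

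Chemokine levels ranged more widely over the libraries than those of most genes. With levels under 0.1202 CPM raised to that value, the highest library lay above the lowest by a median factor of 40.9 among the 24 tested members and of 2.44 among all tested genes. A factor above 10 was met by 19 of 24 members (79.2%) and by 15.1% of all tested genes. HET replicate 2 was the highest library for 9 of the 24 members (37.5%; 16.9% of all genes), and KO replicate 1 for none of them (15.9% of all genes).

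**Figure D1:**
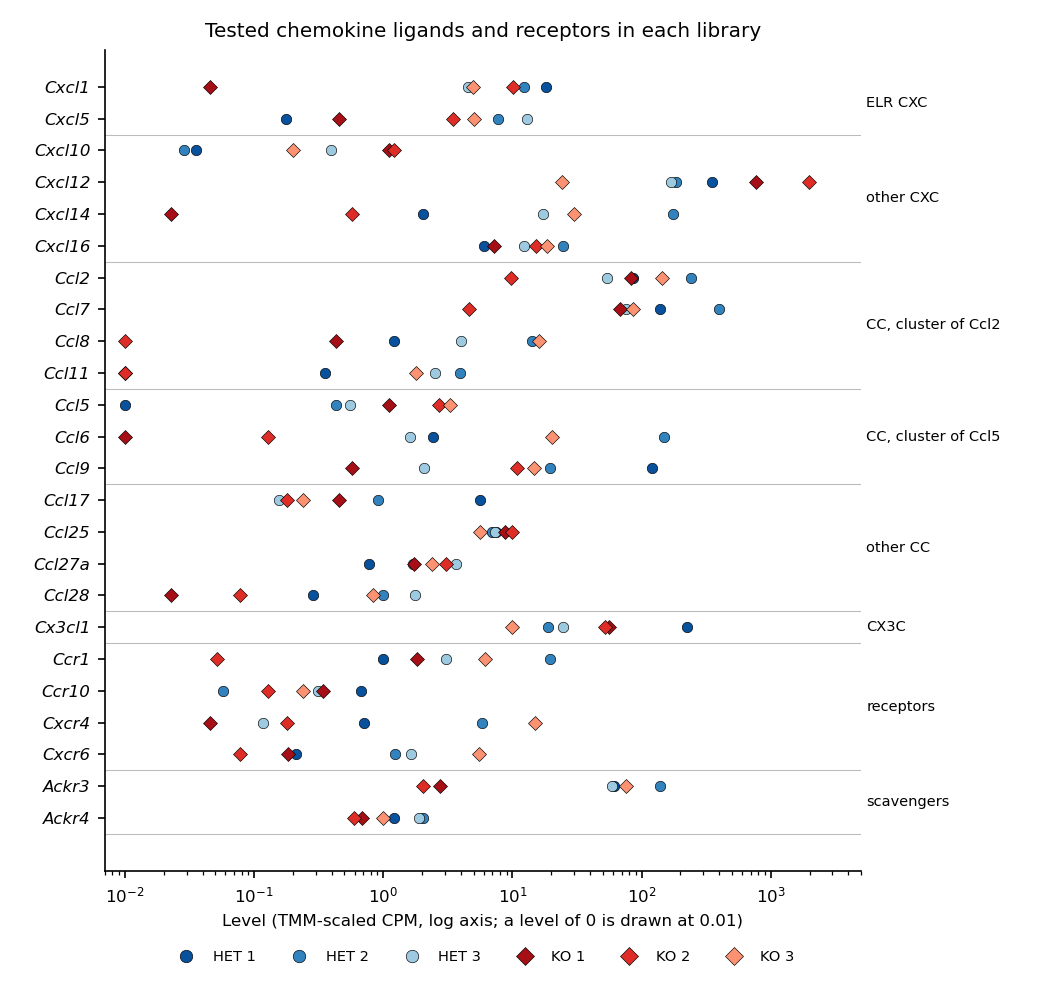
Level of each of the 24 tested chemokine genes (rows, by role) in each library, in TMM-scaled CPM on a log axis; circles are HET and diamonds KO libraries, and a level of 0 is drawn at 0.01. Ccl5 and Ackr4 are the only rows in which circles and diamonds do not overlap.

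Among ligands, Cxcl12 was the most abundant chemokine RNA per length in 2 libraries labelled KO, at 50.6 and 137 RPKM (a level per library size and gene length), and stood at 1.55 RPKM in the remaining one. In the HET libraries it stood at 10.7 to 20.9 RPKM. CXCL12 retains CXCR4-bearing cells in niches and is a known product of tumour fibroblasts. Its gene (chromosome 6, 117168535 to 117181367, GRCm38) stood at 351, 185 and 169 CPM in HET and at 767, 1975 and 24.3 CPM in KO. KO replicates 1 and 2 lay above every HET library and KO replicate 3 below every one. The means were 235 ± 101 CPM in HET and 922 ± 985 CPM in KO (SD, n = 3 each), with a log2 fold change of 1.97 ± 1.25 (SE) and an adjusted p of 0.640 in edgeR. Without KO replicate 2 it was 0.76. Cxcl12 counts were fractional in all 6 libraries, and how its reads were split is not known. The library with the most Cxcl12, KO replicate 2, was the one with Col1a1 at 2.56 CPM, and the part of that difference was not tested.

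Ackr3, the atypical receptor that scavenges CXCL12, was lowest in the 2 libraries with the most Cxcl12. Among the HET libraries the levels did not run in opposite directions, as replicate 3 was the lowest of them for both genes. The gene (chromosome 1, 90203980 to 90216751) stood at 61.2, 139.8 and 59.2 CPM in HET and at 2.73, 2.02 and 76.0 CPM in KO. KO replicates 1 and 2 were the 2 lowest libraries, and KO replicate 3 lay among the HET libraries. The 2 highest, HET replicate 2 and KO replicate 3, were those with the leukocyte markers, whose part in Ackr3 levels was not tested. The log2 fold change was -1.69 ± 1.38 (adjusted p = 0.701 in edgeR), and -5.19 without KO replicate 3. Per length, the ratio of Cxcl12 to Ackr3 was 5.71, 1.32 and 2.84 in HET, 279.7 and 975.8 in KO replicates 1 and 2, and 0.318 in KO replicate 3. The ratio was formed after the values were seen and is given as a description.

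Cxcr4, the signalling receptor of CXCL12, was low in 4 libraries. It stood at 0.708, 5.86 and 0.118 CPM in HET and at 0.0455, 0.181 and 14.99 CPM in KO. The 2 high libraries, HET replicate 2 and KO replicate 3, were those with the leukocyte markers, whose part in this was not tested. The log2 fold change was 1.17 ± 2.08 (adjusted p = 0.867 in edgeR) and turned to -4.29 without KO replicate 3. In bulk samples fewer cells of a type and less RNA per cell cannot be told apart.

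**Figure D2:**
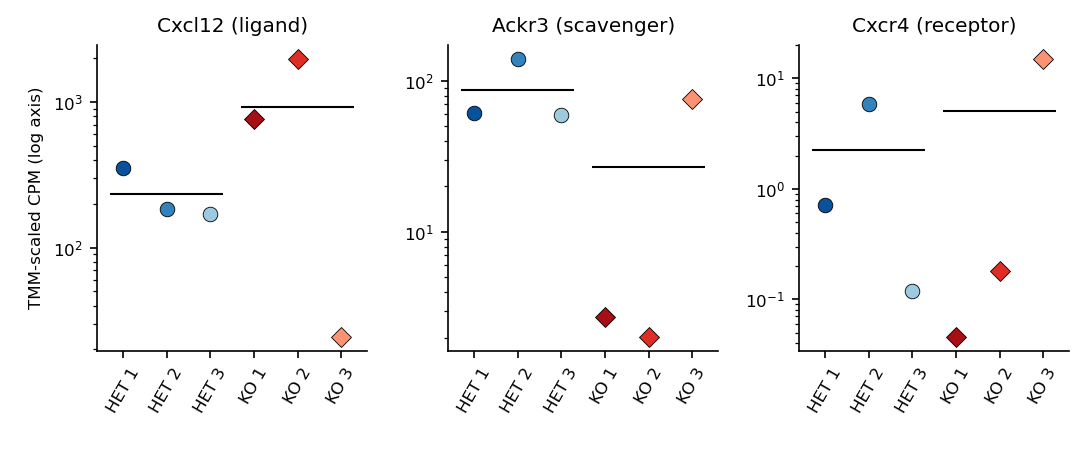
Levels of Cxcl12, its scavenger Ackr3 and its receptor Cxcr4 in each library, in TMM-scaled CPM on log axes; circles are HET, diamonds KO, and lines are the means of the 3 libraries of a label. KO replicates 1 and 2 have the most Cxcl12 and the least Ackr3, and KO replicate 3 has the least Cxcl12 and the most Cxcr4.

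Ccl2 and Ccl7, monocyte chemoattractants that act mainly on CCR2, were the other abundant ligands. They lie next to each other on chromosome 11 (82035571 to 82037453 and 82045712 to 82047525), in the cluster with Ccl11, Ccl12 and Ccl8. Ccl2 stood at 85.2, 243 and 53.5 CPM in HET and at 82.5, 9.71 and 143 CPM in KO. Ccl7 stood at 139, 397 and 75.5 CPM in HET and at 67.8, 4.62 and 86.5 CPM in KO. Both were highest in HET replicate 2 and lowest in KO replicate 2, and the labels overlapped for both. The log2 fold change was -0.70 ± 0.96 for Ccl2 (adjusted p = 0.827) and -1.94 ± 1.07 for Ccl7 (adjusted p = 0.608), both by edgeR's quasi-likelihood test. That of Ccl2 was 0.18 without HET replicate 2, and that of Ccl7 was -1.02.

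Within a library, Ccl7 exceeded Ccl2 per length in every library labelled HET and stood under it in every library labelled KO. The ratio of Ccl7 to Ccl2 RPKM was 1.696, 1.696 and 1.465 for HET, and for KO it was 0.853, 0.494 and 0.628. The means were 1.62 ± 0.133 in HET and 0.658 ± 0.181 in KO (SD, n = 3 each). The ratio does not depend on scaling between libraries, and the labels did not overlap for it. It was singled out after its values were seen, so it carries no test. Nor does it check the label of KO replicate 3, in which Tgfb1i1 was within the HET range. Among single genes the labels did not overlap for 15.5% of those tested, and the share among ratios of other genes was not counted.

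**Figure D3:**
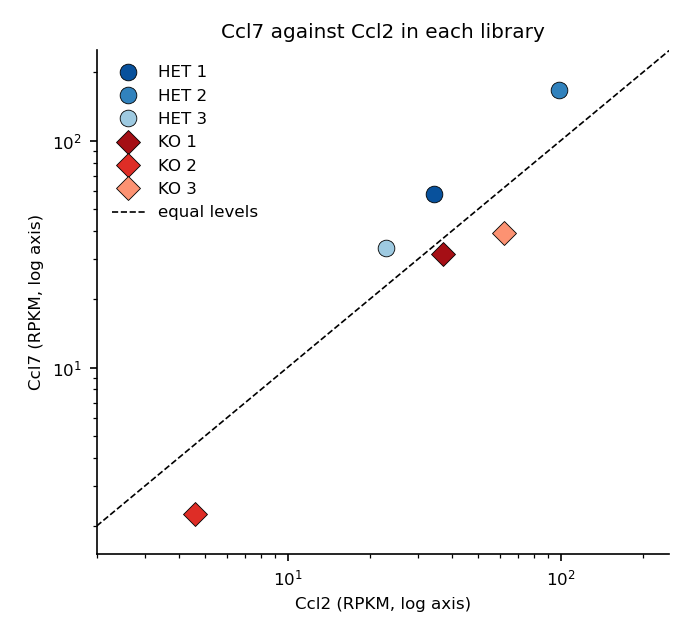
Ccl7 against Ccl2 in each library, in RPKM on log axes, with a dashed line at equal levels; circles are HET and diamonds KO. The 3 HET libraries lie above the line, at ratios of 1.465 to 1.696, and the 3 KO libraries below it, at 0.494 to 0.853.

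The further genes of this cluster were lower and more uneven. Ccl8, another monocyte attractant, stood at 1.204, 14.2 and 4.001 CPM in HET and at 0.432, 0 and 16.1 CPM in KO. Ccl11, the eosinophil attractant eotaxin, stood at 0.354, 3.90 and 2.51 CPM in HET and at 0, 0 and 1.78 CPM in KO. Each overlapped between labels, and KO replicate 2 had no count of either. The other eotaxins, on chromosome 5, were near absent: Ccl24 had 3 counts at most, in HET replicate 1, and Ccl26 had none.

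Ligand make-up, as each ligand's share of the summed RPKM of all ligands, differed by library. Ccl7 led in each HET library with 36.8%, 48.8% and 40.1%, followed by Ccl2 with 21.7%, 28.8% and 27.3%. In KO replicate 1 Cxcl12 led with 39.8%, in KO replicate 2 Cxcl12 held 85.2%, and in KO replicate 3 Ccl2 led with 48.1%. The 3 KO libraries thus did not share a leading ligand, while the 3 HET libraries did.

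**Figure D4:**
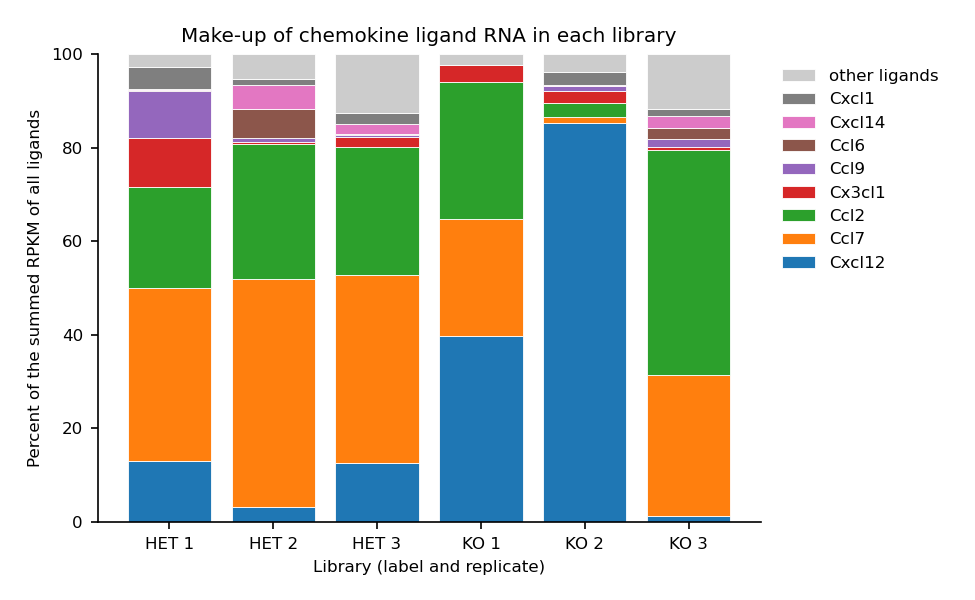
Share of each ligand in the summed RPKM of all chemokine ligands, in percent, for each library. Ccl7 is the largest part in the 3 HET libraries, Cxcl12 in KO replicates 1 and 2, and Ccl2 in KO replicate 3.

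Neutrophil-attracting CXC ligands, which carry an ELR motif and act on CXCR2, were present mainly as Cxcl1 and Cxcl5. Cxcl1 stood at 18.0, 12.2 and 4.51 CPM in HET and at 0.0455, 10.0 and 4.92 CPM in KO, with a single low library, KO replicate 1. Cxcl5 stood at 0.177, 7.74 and 12.98 CPM in HET and at 0.455, 3.46 and 5.08 CPM in KO, with HET replicate 1 the lowest. The log2 fold changes were -1.21 ± 1.37 and -1.22 ± 1.37 (adjusted p = 0.779 and 0.777 in edgeR). That of Cxcl1 was -0.634 when KO replicate 1 was left out and -2.254 when KO replicate 2 was, and that of Cxcl5 was -0.401 without HET replicate 3. Cxcl2 and Cxcl3, which share the run GGGAATTTCCC with Cxcl1, reached 0.397 and 1.67 CPM at most, both in KO replicate 3. Their receptor genes Cxcr1 and Cxcr2 had at most 1 count in any library. Cxcl15 likewise had at most 1 count.

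The ligands of CXCR3 on T cells were close to the floor. Cxcl10 stood at 0.0354, 0.0284 and 0.392 CPM in HET and at 1.115, 1.21 and 0.198 CPM in KO, overlapping through HET replicate 3 and KO replicate 3 (log2 fold change 2.5 ± 1.16, adjusted p = 0.589 in edgeR). It overlaps Art3 on the other strand. Cxcl9 had at most 3 counts, in HET replicate 3 and KO replicate 2, and Cxcl11 at most 2.

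Cxcl14, an epithelial and stromal chemokine, went from near absent to abundant. It stood at 2.02, 176 and 17.1 CPM in HET and at 0.0228, 0.568 and 29.8 CPM in KO. HET replicate 2 was highest and KO replicate 1, with 1 count, lowest. Its log2 fold change was -2.69 ± 2.28 (adjusted p = 0.712 in edgeR) and 0.080 without HET replicate 2. Cxcl16, a membrane-bound ligand of CXCR6, stood at 6.06, 24.5 and 12.2 CPM in HET and at 7.19, 15.3 and 18.4 CPM in KO, and its exons overlap Zmynd15 on the other strand. Cxcl13 and Cxcl17 reached 9 and 8 counts in KO replicate 2 and at most 1 elsewhere.

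Ccl5, a T cell and monocyte attractant (chromosome 11, 83525778 to 83530518), was one of 2 members whose labels did not overlap. It had 0, 15 and 14 counts in HET and 49, 104 and 83 counts in KO, which is 0, 0.427 and 0.549 CPM against 1.115, 2.69 and 3.29 CPM. Every KO library lay above every HET library. The log2 fold change was 2.85 ± 1.16 (unadjusted p = 0.0468, adjusted p = 0.579 in edgeR; adjusted p = 0.200 in DESeq2), so it did not pass. The fitted fold depends on the prior count, as HET replicate 1 had no count. As the labels did not overlap, leaving libraries out could not turn the direction. In 15 alternative settings the log2 fold change ranged from 0.425 to 3.425. The lowest was from limma on log2(RPKM + 1), a scale that compresses low levels, and the highest from edgeR without HET replicate 3.

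The neighbouring Ccl6 and Ccl9, mouse chemokines of the CCR1 group, differed in which libraries held them. Ccl6 stood at 2.41, 148 and 1.61 CPM in HET and at 0, 0.129 and 20.4 CPM in KO. Ccl9 stood at 120.0, 19.5 and 2.08 CPM in HET and at 0.569, 10.9 and 14.7 CPM in KO, highest in HET replicate 1. Their log2 fold changes were -2.90 ± 2.57 and -2.44 ± 1.56 (adjusted p = 0.726 and 0.642 in edgeR), and that of Ccl6 turned to 1.76 without HET replicate 2. That of Ccl9 was -0.305 without HET replicate 1.

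Cx3cl1, a membrane-bound chemokine cleaved from the cell surface, was at its highest in HET replicate 1. It stood at 226, 18.9 and 24.4 CPM in HET and at 56.4, 52.0 and 9.95 CPM in KO. The log2 fold change was -1.19 ± 1.11 (adjusted p = 0.737 in edgeR) and turned to 0.87 without HET replicate 1. Among the lymphoid and barrier ligands, Ccl17 stood at 5.597, 0.910 and 0.157 CPM in HET and 0.455, 0.181 and 0.238 CPM in KO. Ccl17 was highest in HET replicate 1, and its log2 fold change of -2.90 ± 1.24 (adjusted p = 0.583 in edgeR) was -0.861 without that library. Ccl28, a ligand of mucosal surfaces, stood at 0.283, 0.995 and 1.765 CPM in HET and at 0.0228, 0.0775 and 0.833 CPM in KO. Ccl25, a thymus and gut ligand, stood at 7.51, 6.91 and 7.335 CPM in HET and at 8.76, 9.94 and 5.63 CPM in KO. Ccl27a, which has a near-identical copy in Ccl27b, stood at 0.779, 1.71 and 3.69 CPM in HET and at 1.73, 3.07 and 2.38 CPM in KO. The labels overlapped for all 3. Exons of Ccl25 overlap Elavl1 and those of Ccl27a overlap Il11ra1, each on the other strand, and Ccl25 had fractional counts in 6 libraries, so their levels are uncertain.

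Signalling receptors were sparse in these cultures. Ccr2, the main receptor of CCL2 and CCL7, had 5 counts in HET replicate 2 and 0 in the other 5 libraries. Ccr1, a receptor of several CC ligands, stood at 0.992, 19.7 and 3.06 CPM in HET and at 1.82, 0.0517 and 6.15 CPM in KO. Cxcr6 stood at 0.213, 1.22 and 1.65 CPM in HET and at 0.182, 0.0775 and 5.55 CPM in KO. Ccr10, a receptor of CCL27 and CCL28, stood at 0.673, 0.0569 and 0.314 CPM in HET and at 0.341, 0.129 and 0.238 CPM in KO. For Ccr1, Cxcr6 and Ccr10 the labels overlapped, with adjusted p of 0.750, 0.864 and 0.856 in edgeR. Cx3cr1, the receptor of Cx3cl1, reached 1.93 CPM in HET replicate 2. The further receptors named here were near the floor. Cxcr5, a chemokine receptor found on B cells, had at most 8 counts, in HET replicates 2 and 3, and Ccr4 had 5, in KO replicate 2. Ccr7 had 4 and Cxcr3 had 3, both in HET replicate 2, and Ccr9 had 3, in HET replicate 3. Exons of Cxcr5 overlap those of Bcl9l.

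Several receptors and ligands were highest in the libraries that held leukocyte RNA. Of 16 leukocyte and macrophage markers, 15 were higher in HET replicate 2 and KO replicate 3 than in each of the other 4 libraries. Ptprc, the pan-leukocyte gene, stood at 8.19 and 5.67 CPM there and at no more than 0.0455 CPM elsewhere. Lyz2, a lysozyme of macrophages, stood at 1257 and 1037 CPM there and at 3.08 to 20.9 CPM elsewhere. The same order was met by 8 of 24 tested chemokine genes (33.3%; 9.0% of all tested genes), namely Ackr3, Ccl2, Ccl6, Ccl8, Ccr1, Cxcl14, Cxcl16 and Cxcr4. Among 21 untested genes that reached 3 counts those that met it included Ccl12, Ccl3, Cx3cr1 and Cxcl3. The part of leukocyte RNA in these levels was not tested. Without these 2 libraries the median log2 fold change of the tested members was -1.24. In that fit 4 members and 987 genes in all had an unadjusted p under 0.05 in edgeR.

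**Figure D5:**
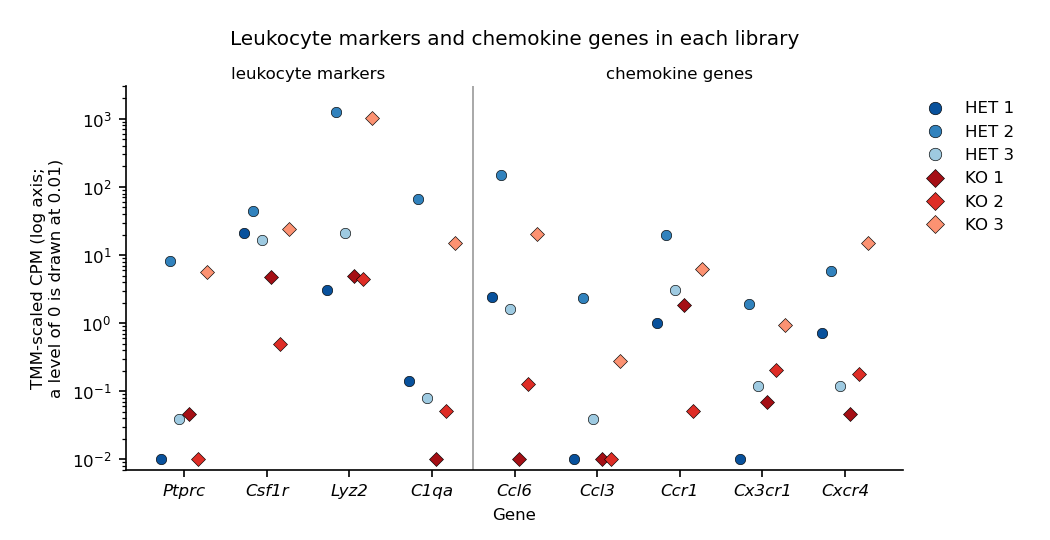
Levels of 4 leukocyte markers and 5 chemokine genes in each library, in TMM-scaled CPM on a log axis; circles are HET, diamonds KO, and a level of 0 is drawn at 0.01. HET replicate 2 and KO replicate 3 are the 2 highest libraries in each column.

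Of the scavengers, Ackr4, which removes CCL19, CCL21 and CCL25, was the other member without overlap. It stood at 1.204, 2.02 and 1.88 CPM in HET and at 0.6825, 0.594 and 0.991 CPM in KO, so every KO library lay below every HET library. The log2 fold change was -1.17 ± 0.43 (unadjusted p = 0.0327, adjusted p = 0.579 in edgeR; adjusted p = 0.338 in DESeq2), and it did not pass. Its exons overlap Acad11 on the other strand and its counts were fractional in 6 libraries, so reads of the neighbour cannot be told apart. Ackr1 had at most 3 counts, in HET replicate 3, and Ackr2 reached 14 counts in HET replicate 2.

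Genes that act on or after chemokines were described from lists of inducers, signalling parts and genes around mRNA decay and cleavage. No gene of these lists passed edgeR's test over all genes. Of the genes named from them below, DESeq2 gave only Il1r1, Grk6 and Mmp9 an adjusted p under 0.05, as it did 1.2% of all genes. NF-kB and cytokine inducers had 11 of 24 tested genes higher and 13 lower in KO, with a median log2 fold change of -0.22, which changed sign with the libraries included. It was 0.036 when HET replicate 3 was left out, 0.014 when KO replicate 2 was and 0.152 when both replicates 3 were. With a replicate block for the title number that both replicates 3 share it was 0.068. Il1r1, the interleukin 1 receptor, stood at 221, 67.7 and 148 CPM in HET and at 45.1, 29.5 and 40.8 CPM in KO, with no overlap (-1.92 ± 0.45, adjusted p = 0.579 in edgeR and 0.0267 in DESeq2). Lif, a cytokine of the interleukin 6 family, stood at 9.53, 24.5 and 18.3 CPM in HET and at 48.4, 33.2 and 79.0 CPM in KO, and Tnfaip3, a brake on NF-kB, averaged 22.5 ± 6.62 CPM for HET and 42.9 ± 15.1 CPM for KO. Tnf and Il1b, potent inducers of chemokines, reached only 0.484 and 0.0284 CPM.

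Of genes around interferon, Jak1, a kinase of interferon receptors, stood at 476, 483 and 272 CPM in HET and at 124, 186 and 214 CPM in KO, with no overlap (-1.23 ± 0.34, adjusted p = 0.579 in edgeR and 0.0972 in DESeq2). Gbp2 and Ifit3, interferon-induced genes, averaged 32.6 ± 22.9 and 20.4 ± 14.9 CPM for HET, 11.4 ± 4.82 and 7.54 ± 3.80 CPM for KO. Isg15 and Irf7, also interferon-induced and chosen after their values were seen, averaged 3.92 ± 1.88 and 4.97 ± 3.12 CPM for HET, 13.2 ± 19.5 and 8.64 ± 10.2 CPM for KO, and were highest in KO replicate 2. Ifng had at most 1 count in any library.

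Receptor signalling and desensitisation had 8 of 20 tested genes higher and 12 lower (median -0.08, and -0.37 without KO replicate 3). Grk6, a kinase that desensitises chemokine receptors, stood at 56.5, 47.5 and 46.2 CPM in HET and at 105.6, 90.8 and 91 CPM in KO (0.94 ± 0.18, adjusted p = 0.579 in edgeR and 0.0248 in DESeq2). Gng12 and Gng5, G protein gamma subunits, averaged 441 ± 130 and 64.1 ± 18.7 CPM for HET, 252 ± 41.4 and 44.9 ± 2.98 CPM for KO. Genes around chemokine mRNA decay and chemokine cleavage had 5 of 12 tested genes higher and 7 lower (median -0.13, and 0.117 without HET replicate 2). Mmp9, a gelatinase that can trim chemokines, stood at 0.354, 0.427 and 0.118 CPM in HET and at 23.4, 3.93 and 2.18 CPM in KO (5.01 ± 1.13, adjusted p = 0.579 in edgeR and 0.000192 in DESeq2). Adam17, a sheddase of Cx3cl1, had 57.7 ± 9.96 CPM for HET and 36.9 ± 10.98 CPM for KO, and Elavl1, an RNA-stabilising protein, 75.0 ± 7.64 and 111 ± 37.9 CPM.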

How the data were processed

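Total RNA was depleted of ribosomal RNA and sequenced as stranded libraries, per the labels' protocols. The submitters' processing notes list Bowtie2, cutadapt 1.2.1 and Partek, with mm10 and GRCm38 as builds. Annotation, counting method and strand setting: not given in the sources used here. A table per library was deposited by the authors, with an estimated count per gene (84.4% of values were whole) and RPKM. Of 48408 rows per table, 30 with shifted columns were left out and symbols on several rows were summed. Counts were rounded. Genes passing filterByExpr were scaled by TMM and KO was tested against HET with edgeR 4.0.16 (limma 3.58.1, R 4.3.3), quasi-likelihood F test, two-sided, Benjamini-Hochberg adjusted over 17584 genes at 0.05; the fit was tested on simulated data. CPM are TMM-scaled; RPKM were used as deposited to compare genes. Alternatives were DESeq2 1.42.0 on all genes with its own filtering, other scalings, no filter, limma on log2(RPKM + 0.1 or + 1), left-out libraries, and a block for the 1 title number both labels carry. Gene positions are GENCODE M21 (59 of 60 members).

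Apart from items not reported here, every member is accounted for. Tested members were given per library when among the 4 of highest mean CPM or smallest p of their role group, others by range, and of each pathway list the 3 genes of smallest p. The members and lists were chosen with earlier results of these data known. Title numbers differ between libraries except for 1 number carried by both HET replicate 3 and KO replicate 3.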

Additional observations from a re-analysis of the deposited data

How the results depend on the processing

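No member was called in edgeR, DESeq2 or limma under any of 15 alternatives. In 14 of these, all but DESeq2, no gene at all was called, so the lack of members there is not particular to them. In DESeq2 the tested members Ackr3, Ccl6, Cx3cl1 and Cxcr4 had no adjusted p and could not be called. DESeq2 called 215 genes in all. The genes with an unadjusted p under 0.05 numbered 648 (without HET replicate 2) to 2281 (without KO replicate 3) with 1 library left out, 917 without KO replicate 2, and 987 without both libraries with Ptprc. The members with one numbered 2 in the reported fit (1511 genes in all), 1 with library totals alone (1732 genes) and 4 with no filter (1917 genes). They numbered 6 in DESeq2 (2062 genes) and 1 in limma on log2(RPKM + 1) (1614 genes). Without HET replicate 3 and KO replicate 3, which share a title number, they numbered 8 (1545 genes). They numbered 4 without both libraries with Ptprc (987 genes), and 0 to 10 with 1 library left out. The members' median was -0.47 on log2(RPKM + 0.1), -0.34 on log2(RPKM + 1) and -2.16 to 0.090 with 1 library left out. With a replicate block for the shared title number, which joins only 1 HET and 1 KO library, 1055 genes and 2 members had an unadjusted p under 0.05, none was called and the median was -1.21.

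Of 354 member values under alternatives, 331 kept their direction; 12 members never changed it and 12 did. With 1 library left out, log2 fold changes ranged from -1.47 to 0.18 for Ccl2, -0.009 to 0.37 for Ccl25, -0.17 to 0.94 for Ccl27a, -9.62 to 1.76 for Ccl6, -4.87 to 1.08 for Ccl8, -3.08 to 0.395 for Ccr1, -1.05 to 0.39 for Ccr10, -1.67 to 0.87 for Cx3cl1, -7.815 to 0.080 for Cxcl14, -0.42 to 0.575 for Cxcl16, -4.29 to 3.59 for Cxcr4 and -2.94 to 1.45 for Cxcr6. Cxcl16 was 0.084 with library totals, 0.164 and 0.086 in limma on log2(RPKM + 0.1) and log2(RPKM + 1), and 0.275 without both libraries with Ptprc. Cxcr4 was -2.97 with the replicate block and -4.86 without both libraries of that number, and Cxcr6 was -1.10 with the block. The cause was not tested. Library totals alone moved the median of all tested genes to 0.154 from 0.011. Of 75 pathway list medians, 13 moved beyond the spread between libraries, 8 of them of the NF-kB and cytokine inducers. At this depth, levels under 0.0706 to 0.1202 CPM (3 counts) cannot be told from 0. Within a label, chi-square statistics of the counts were 173 to 382 times their degrees of freedom.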

Other observations

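Chemokine-related genes outside the symbol rule had 2 of 10 tested genes higher and 8 lower in KO, with a median log2 fold change of -0.38 and none passing edgeR's quasi-likelihood test. The 3 of smallest unadjusted p were Cmtm6, a membrane protein of the chemokine-like factor family (95.2 ± 36.9 CPM in HET and 68.1 ± 26.9 CPM in KO, SD), Mif, a cytokine that binds CXCR4 (216 ± 132 and 155 ± 25.3 CPM), and Xcr1, the receptor of Xcl1 (2.296 ± 0.849 and 1.21 ± 1.51 CPM). Rarres2, the chemerin precursor, measured 13.8, 21.7 and 342 CPM for HET (replicates 1, 2 and 3) against 271, 0.129 and 23.8 CPM for KO. It was high in HET replicate 3 and KO replicate 1 and nearly absent from KO replicate 2. Pf4, a platelet and macrophage chemokine, reached 7.48 CPM for HET replicate 2 and 1.90 CPM for KO replicate 3, the libraries with Ptprc, and at most 0.0708 CPM elsewhere.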
